A study of Mus musculus with 16 samples.

Results

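One-direction CpG-rich promoters of protein-coding genes accounted for 6523 of 81132 open regions (8.04%) mapped by ATAC-seq in mouse ES cells. A region was a member of this set when it lay on an autosome and its centre fell in the promoter of a protein-coding gene, from 1000 bp before to 100 bp past a transcription start site (TSS) in GENCODE M21. In addition, no gene on the opposite strand started within 1000 bp of that TSS, and the mm10 bases of the region had a GC content of at least 55% and a CpG observed/expected ratio of at least 0.6. This ratio divides the number of CpG dinucleotides by the number that the C and G content of the region predicts. The choice used position and sequence, and no measured level.

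ATAC-seq maps accessible DNA with the Tn5 transposase, and the study applied it to cells of 1 knock-in line, SBROS, sorted in G1 phase by their amounts of the transcription factors SOX2 and OCT4. There were 4 populations with 3 replicates each, 12 libraries in all: SHOH (SOX2 high, OCT4 high), SHOL (SOX2 high, OCT4 low), SLOH (SOX2 low, OCT4 high) and SLOL (SOX2 low, OCT4 low). SBROS is a clone with the CGR8 background in which both Sox2 alleles encode SOX2-SNAP and 1 Oct4 allele encodes OCT4-HALO, made in SBR cells, which carry reporters for Sox1 and Brachyury. All populations were grown in serum with LIF, CHIR99021 at 3 µM and PD184352 at 0.8 µM and stained with ligands for both tags and with Hoechst. The deposited list holds the positions of the regions of all libraries merged, without levels or the library of origin. The study's methods give a range of reads for the ATAC-seq libraries, but the list does not give the depth of each library. The 4 populations thus could not be compared, and the measured quantities are the presence, position and width of open regions. Regions are not replicates: the tests below compare classes of regions in 1 pooled list, measure no spread between libraries, and their p-values were not adjusted over the 8 comparisons of classes.

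CpG islands are stretches of vertebrate DNA that escaped the loss of CpG dinucleotides through methylation, and they lie at the promoters of nearly all housekeeping genes and of many developmental regulators. At housekeeping genes they bind activators such as SP1, NRF1, GABPA, NFY and YY1 and carry H3K4me3, whereas in ES cells the islands of silent developmental genes are bound by polycomb complexes. CpG-rich promoters mostly lack a TATA box and start transcription at dispersed positions, and many drive a divergent gene from the same island, which is why promoters with a gene in 1 direction and those with genes in both directions were set apart.

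The sequences that follow show what a member looks like at the bases just upstream of its TSS. For 7 of the motifs that were more frequent close to the TSS (values further on), the stretch from -120 to -1 of the TSS is printed for the first gene, in alphabetical order among the gene groups described further on, that had the motif there and no annotated exon in the stretch. All are from mm10 (GRCm38), read 5′ to 3′ on the strand of the gene, in lower case with the motif match in capitals. The motifs were searched on both strands as exact words: GCATGCGC for NRF1, CCGGAAGT for ETS factors such as GABPA, GGGCGG for SP and KLF factors (the GC box), CCAAT for NFY, TGACGTCA for CREB and ATF factors (CRE), CTCGCGAG for ZBTB33, CACGTG for MYC, MAX and USF (the E-box), TTTCCCGC for E2F and ATGCAAAT for POU factors such as OCT4 (the octamer). No stretch is printed for CRE and the octamer, and no gene of the groups met these limits for YY1. The coordinates are chr4:123343253-123343372 on the minus strand for Bmp8a, chr10:127311787-127311906 on the minus strand for Mars, chr6:140623379-140623498 on the plus strand for Aebp2, chr4:123105045-123105164 on the plus strand for Bmp8b, chr2:34870963-34871082 on the minus strand for Psmd5, chr11:119040970-119041089 on the minus strand for Cbx8 and chr8:75109449-75109568 on the plus strand for Mcm5.
Bmp8a with NRF1: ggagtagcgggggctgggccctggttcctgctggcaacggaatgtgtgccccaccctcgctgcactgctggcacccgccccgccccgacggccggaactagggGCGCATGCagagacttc
Mars with ETS: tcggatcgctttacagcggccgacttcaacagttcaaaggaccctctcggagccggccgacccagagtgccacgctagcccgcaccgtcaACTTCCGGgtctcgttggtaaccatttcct
Aebp2 with GC box: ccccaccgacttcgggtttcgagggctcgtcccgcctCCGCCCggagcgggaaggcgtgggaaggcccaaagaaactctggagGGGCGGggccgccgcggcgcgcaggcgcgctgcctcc
Bmp8b with CCAAT box, minus strand match: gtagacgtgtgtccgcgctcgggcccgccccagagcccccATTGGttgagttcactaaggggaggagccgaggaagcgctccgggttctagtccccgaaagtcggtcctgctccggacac
Psmd5 with ZBTB33: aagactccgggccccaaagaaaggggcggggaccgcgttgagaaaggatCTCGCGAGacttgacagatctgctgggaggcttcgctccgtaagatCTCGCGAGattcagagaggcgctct
Cbx8 with E-box: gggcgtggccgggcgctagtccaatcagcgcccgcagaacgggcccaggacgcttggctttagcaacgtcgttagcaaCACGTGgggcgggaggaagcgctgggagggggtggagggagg
Mcm5 with E2F: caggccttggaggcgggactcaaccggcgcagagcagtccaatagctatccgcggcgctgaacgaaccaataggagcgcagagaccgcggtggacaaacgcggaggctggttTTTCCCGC

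Of these genes, Bmp8a and Bmp8b encode BMP ligands, Mars encodes the methionyl-tRNA synthetase, Psmd5 an assembly chaperone of the proteasome, Mcm5 a subunit of the replicative helicase, and Aebp2 and Cbx8 proteins of polycomb complexes. The stretches hold between 9 CpG dinucleotides (Bmp8a) and 17 (Aebp2), and their GC content runs from 59.2% (Psmd5) to 75.8% (Aebp2). The regions around them differ more in width than in composition: the open region was 1149 bp wide at Bmp8b, 1005 bp at Bmp8a, 869 bp at Cbx8, 769 bp at Mcm5, 706 bp at Psmd5 and 685 bp at Mars, but 243 bp at Aebp2. Aebp2 has a further region of 139 bp, from 414 to 276 bp upstream of the same TSS. Its CpG observed/expected ratio was 1.06, and it missed the set on its GC content of 49.6% alone. In the stretch from -120 to -1 of 1 TSS of each of 20722 autosomal protein-coding genes, the share with a match was 35.3% for the GC box, 22.9% for NFY, 4.10% for the E-box, 2.83% for ETS, 2.15% for NRF1, 1.64% for CRE, 0.796% for the octamer, 0.632% for ZBTB33 and 0.598% for E2F. A match is a description of the sequence and does not show that a factor binds there.

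For contrast, the same stretch is shown for Bmp4, a gene whose only open region at its TSS missed the set by its sequence. Bmp4 was chosen after its values were seen, and the stretch lies at chr14:46390670-46390789 on the minus strand.
Bmp4 with a CpG-poor region: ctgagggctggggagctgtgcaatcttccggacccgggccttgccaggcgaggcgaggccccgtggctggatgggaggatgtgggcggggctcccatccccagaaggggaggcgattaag

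The stretch of Bmp4 holds 7 CpG dinucleotides. At this gene, which encodes a BMP ligand, the open region of 523 bp covered the TSS and had a GC content of 63.3%, but its CpG observed/expected ratio was 0.505. Its region thus missed the set on CpG content alone.

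Of the 81132 regions, 79278 lay on autosomes and 14050 of these (17.3% of the list) were centred in the promoter of a protein-coding gene. Promoters in 1 direction held 11070 regions and bidirectional promoters 2980. The 6523 members made up 58.9% of the one-direction promoter regions and 46.4% of all protein-coding promoter regions. Among the 4547 one-direction regions outside the set, here called CpG-poor, 2196 missed the CpG threshold alone, 432 the GC threshold alone and 1919 both, so most of the divide is set by CpG and little by GC content alone. The CpG-rich bidirectional promoters, the other class used for comparison, had 2312 regions. By choice, members had a median GC content of 64.1% (quartiles 60.8% and 67.5%, highest 81.5%) and a median CpG observed/expected ratio of 0.785 (quartiles 0.707 and 0.868, highest 1.31).

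At the thresholds, the members just inside on GC content were the regions of Necap1, which encodes an adaptor of endocytic vesicles (820 bp), and of Rccd1 (640 bp), both at 55%. Just outside were regions of Spryd4 (491 bp, 54.99%) and Lamtor4 (773 bp, 54.98%), the latter encoding a subunit of the lysosomal Ragulator complex. On CpG observed/expected, the members just inside were regions of Iqgap2, a scaffold protein (132 bp), and Tfap2a, the transcription factor AP-2 alpha (327 bp), both at 0.6. Just outside were regions of Pfkp, which encodes the platelet form of phosphofructokinase (749 bp), and of Tbc1d23 (884 bp), both at 0.5999.

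The members belonged to 6068 genes and 6464 TSSs, with 3267 on the plus and 3256 on the minus strand. A gene had 1 member in 5653 cases, 2 in 380 cases and 3 in 31 cases, so that 415 genes (6.84%) had more than 1. The most, 5, belonged to Rreb1, which encodes a RAS-responsive zinc finger factor, and 4 each belonged to Auts2, whose product is part of a polycomb complex, Kctd1 and Ube2e1, a ubiquitin-conjugating enzyme. The 5 members of Rreb1 spread over 3 places, at chr13:37778101-37778444, between 37825184 and 37827001 (regions of 972, 144 and 451 bp) and at chr13:37857565-37858154. Those of Auts2 included the widest of these genes, 1960 bp, and a region of 146 bp whose centre lay 1965 bp from that of the next region. A different arrangement was found at 59 TSSs, which had more than 1 member each (118 members in all) with a median gap of 200 bp between neighbours (3 to 572 bp). In these places the open chromatin of 1 promoter was thus listed in pieces.

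The TSS that placed a member in the set was not always the main TSS of the gene. For 6518 members the gene had a representative TSS (the most 5′ TSS of its principal transcripts), and the TSS of 2692 members (41.3%) was that position, while 64.9% lay within 100 bp of it. A further 576 members (8.84%) lay at a TSS more than 1000 bp downstream of it and 208 (3.19%) at one more than 1000 bp upstream. With 1 TSS per gene, taken as the 5′ end of the gene record, the set held 3852 regions in place of 6523. Annotated exons covered 38.9% of the bases of the members, 54.4% of the members had their centre in an exon, and 506 (7.76%) contained no exon base.

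Members were wide regions (plot of region widths). Their median width was 713 bp (95% confidence interval 705 to 722 bp) with quartiles of 499.5 and 913.5 bp and a range from 113 to 2579 bp. CpG-poor one-direction promoter regions had a median width of 424 bp (414 to 438 bp). The difference of 289 bp was tested with Mood's median test, as a two-sided Fisher's exact test on the regions above and not above the pooled median, which gave p = 1.1e-288. It was 188 bp when the CpG threshold was raised to 0.75, which moves regions of intermediate CpG content into the comparison class. With GC and CpG measured within 500 bp of the TSS in place of the region, it was 264 bp. The rule reads GC and CpG over the region itself, so width is not fully independent of the class. Members were narrower than CpG-rich bidirectional promoter regions, whose median was 815 bp (801 to 833 bp), by a difference of -102 bp (p = 2.4e-28, same exact test). The width of a member thus lay between these classes, and closer to promoters with the same sequence and a gene on each side.

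**Figure D1:**
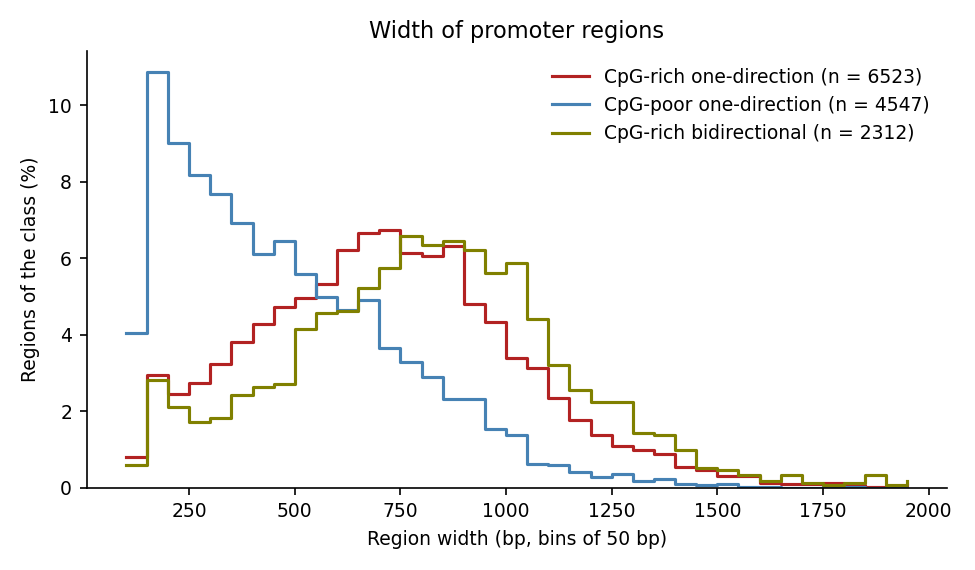
Width of promoter regions in bp (bins of 50 bp, x axis, regions of 2000 bp or more not drawn) as a percentage of the regions of each class (y axis), for CpG-rich one-direction (n = 6523), CpG-poor one-direction (n = 4547) and CpG-rich bidirectional (n = 2312) promoters. The medians are 713, 424 and 815 bp, and the CpG-poor class is crowded below 200 bp.

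The tail above 1000 bp showed the same order. Below 200 bp members and bidirectional regions had overlapping intervals (3.31% to 4.23% and 2.75% to 4.24%). Of the members, 244 (3.74%) were narrower than 200 bp, against 14.9% of CpG-poor regions and 3.42% of bidirectional ones. At the other end, 1129 members (17.3%) were wider than 1000 bp, against 4.40% and 27.5%. A narrow member often had company: 138 of the 244 below 200 bp (56.6%) had another open region centred within 1000 bp, compared with 20.6% of the wider members. The other region need not lie at the same promoter, and a wide member itself fills part of the 1000 bp. These shares are therefore a description only.

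The widest member, 2579 bp, lay at chr9:85326239-85328817 and reached from 1469 bp upstream to 1109 bp downstream of the TSS of Tent5a, which encodes a poly(A) polymerase. The next were those of Fat3, an atypical cadherin (2312 bp), Agbl5, a tubulin deglutamylase (2112 bp), Schip1, a cytoskeletal linker of axons (2087 bp), and Eef1a1, the translation elongation factor eEF1A1 (2082 bp). All 5 covered their TSS. The narrowest were at Pnmt, which encodes the enzyme that makes adrenaline (113 bp, chr11:98386701-98386813), and Tbkbp1, an adaptor of the kinase TBK1 (113 bp). They were followed by Hrk, a BH3-only protein, Aplp1, an APP-like membrane protein (128 bp), and Ppef2, a phosphatase of photoreceptors (129 bp). Of these 5, the regions of Pnmt and Ppef2 covered the TSS, whereas those of Tbkbp1, Hrk and Aplp1 ended 595, 171 and 99 bp upstream of it.

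Within the set, median width did not rise steadily with GC or CpG content. It was highest in a middle bin of each measure and lowest in the top bin. Median width was 740 bp for members with a GC content from 55% to 60%, 752 bp from 60% to 65%, 711 bp from 65% to 70% and 477 bp at 70% or more. The last of these bins also had the lowest share covering the TSS, 78.9% against 88.0% to 90.2% in the others. By CpG observed/expected, median width was 696 bp at 0.6 to 0.7, 735 bp at 0.7 to 0.8, 738 bp at 0.8 to 0.9, 688 bp at 0.9 to 1 and 540 bp at 1 or more. The top bin of each measure thus had the lowest median width. Both measures were taken over the bases of each region, so they depend on its width. No link between sequence and width is therefore read from the bins. Across the 6523 members, Spearman's rho was -0.15 between width and GC content and -0.0253 between width and the CpG ratio, as a description of regions that share a pooled list and whose composition is measured over their own bases.

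Most members were narrower than the CpG-rich stretch of sequence at their TSS. That stretch was measured with windows of 200 bp in steps of 10 bp, up to 3000 bp on either side of the TSS, joining windows that met both sequence thresholds. It was found for 6519 members and had a median length of 920 bp (quartiles 710 and 1230 bp), with median ends at -380 bp and +509 bp from the TSS. A median of 93.1% of a region lay inside its stretch, while a median of 73.6% of the stretch lay inside the region, and 4555 members (69.9%) were narrower than their stretch. Since a member had to meet the same thresholds over its own bases, that it lies mostly inside its stretch is largely set by the rule. The median edges of the regions themselves were at -413 bp and +304 bp.

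Spearman's rho between the upstream edges of region and stretch was 0.570 (n = 6519), and it was 0.144 for the downstream edges. These values describe members chosen by the same thresholds and with more room upstream than downstream of the TSS, so no difference between the edges is read from them. The lengths themselves had a rho of 0.164. Median width was 406 bp for the 306 members with a stretch below 500 bp, 716 bp for 3427 members at 500 to 1000 bp, 785 bp for 1925 members at 1000 to 1500 bp, 710 bp for 618 members at 1500 to 2000 bp and 630 bp for 243 members at 2000 bp or more. A region that fills a stretch reaching far downstream would be centred more than 100 bp past the TSS and fall outside the set. No link between the length of the stretch and the width of open chromatin is therefore read from these values.

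Most members covered their TSS (profile of open regions around the TSS). This held for 5734 of 6523 (87.9%, 95% Wilson interval 87.1% to 88.7%, for counting error only), against 64.4% of CpG-poor one-direction regions. The difference was 23.6 percentage points (Newcombe interval 22 to 25.2, two-sided Fisher's exact test, p = 4.9e-190). It was 11.4 points when GC and CpG were measured within 500 bp of the TSS in place of the region itself, so its size depended on where sequence was measured. Bidirectional CpG-rich regions covered their TSS in 90.1% of cases, a difference of -2.23 points (-3.64 to -0.738, Fisher's exact test, p = 0.0039). By the same exact test, that small difference was 0.0317 points (p = 0.96) with 1 TSS per gene and -1.37 points (p = 0.068) when no opposite-strand gene was allowed within 2000 bp, whereas it was -4.12 points (p = 2.8e-07) when that distance was 500 bp. It thus depended on which TSSs were counted.

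**Figure D2:**
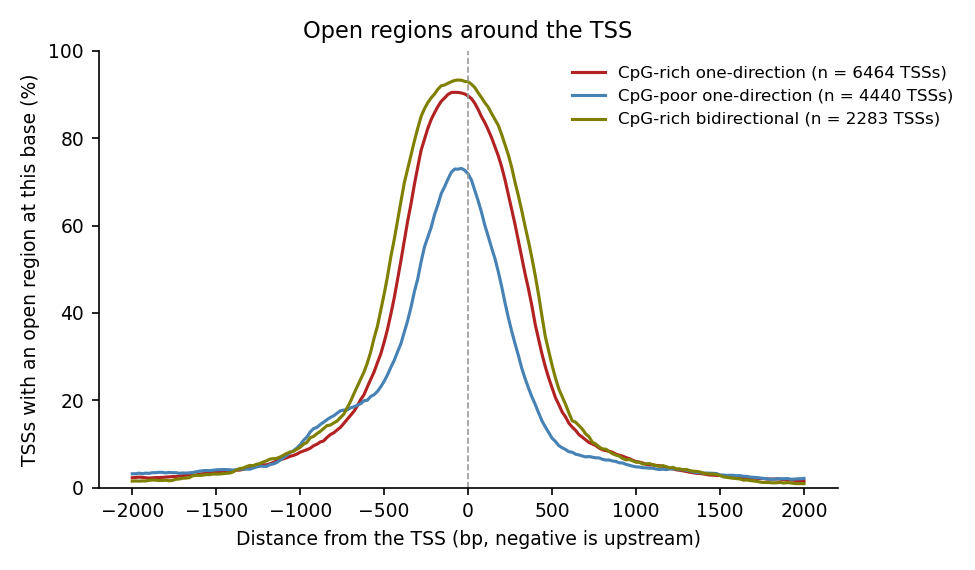
Percentage of TSSs with an open region at each base (y axis) against the distance from the TSS in bp (x axis, negative is upstream), for the TSSs of CpG-rich one-direction (n = 6464), CpG-poor one-direction (n = 4440) and CpG-rich bidirectional (n = 2283) promoter regions. The highest values are 90.5%, 73.1% and 93.3%, all within 80 bp upstream of the TSS.

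Members sat almost symmetrically on the TSS with a slight shift upstream. The centre lay at a median of -25 bp from the TSS (negative is upstream), 62.5% of the centres were upstream, and 68.3% lay within 100 bp of the TSS. The median edges were at -413 bp and +304 bp. Since a centre could lie at most 100 bp downstream, but up to 1000 bp upstream, of the TSS, the rule itself favours an upstream shift. In the profile over all 6464 TSSs, 90.5% had an open region at -80 bp, 89.7% at the TSS, 33.3% at -500 bp and 22.9% at +500 bp. At the single base 2000 bp away, the share was 2.31% upstream and 1.56% downstream.

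Of the 789 members that did not cover their TSS, 776 lay entirely upstream, with a median of 176.5 bp between their downstream edge and the TSS, and 13 lay entirely downstream. Their median width was 392 bp, against 745 bp for members covering the TSS. At 46 of these members the TSS was covered by another open region that was centred in the promoter and assigned to the same TSS. Covering regions centred outside the promoter or assigned to another TSS were not counted. Sox2 and Myc, described further on, belong to the members that end upstream of their TSS.

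Open regions near a member were common. The next open region was centred at a median of 5405 bp from the centre of a member, and 3104 members (47.6%) had another within 5 kb. The share was 52.0% for CpG-poor one-direction regions, a difference of -4.38 points (-6.27 to -2.49, Fisher's exact test, p = 6.1e-06). By the same exact test, this difference changed sign with other settings, to +0.891 points (p = 0.35) at a GC threshold of 60%, +0.204 points (p = 0.84) at a CpG threshold of 0.75 and +2.95 points (p = 0.0019) with sequence measured around the TSS, and within 2 kb it was -1.37 points (p = 0.14). It therefore has no stable direction. Compared with bidirectional CpG-rich promoters (42.5%), the share was higher by 5.07 points (2.71 to 7.41, Fisher's exact test, p = 2.7e-05). It was higher by 1.28 points (exact p = 0.28) when no opposite-strand gene was allowed within 2000 bp, by 8.74 points when that distance was 500 bp, and by 1.68 points (p = 0.14) for neighbours within 2 kb.

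Few members were rich in repeats, as was the case for other CpG-rich promoters. At least 10% of the bases were marked as repeats in the reference in 1199 members (18.4%), against 37.1% of CpG-poor one-direction regions and 13.6% of bidirectional CpG-rich ones. The rule read GC and CpG over the same bases in which repeats were counted, so the classes were not set apart independently of repeats. The difference from CpG-poor regions was -18.7 points (-20.4 to -17.0, two-sided Fisher's exact test, p = 3.4e-106). It was -11.8 points at a CpG threshold of 0.75, -11.5 points with sequence measured around the TSS and -3.55 points when at least 50% of the bases had to be repeats, a share that 1 member and 162 CpG-poor regions reached. Regions without any repeat base made up 28.6% of members, 29.4% of CpG-poor regions and 28.0% of bidirectional ones, so members and CpG-poor regions differed in how many regions were repeat-rich and little in how many were free of repeats.

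The members were spread over all 19 autosomes, from 186 on chromosome 18 to 579 on chromosome 11, with median widths from 642.5 bp (chromosome 19) to 797 bp (chromosome 6). Among one-direction genes with a CpG-rich promoter, the share with an open region centred in the promoter ran from 59.3% on chromosome 6 to 69.3% on chromosome 11 with a median of 65.8%. The spread between chromosomes was thus small. Chromosome 6 combined the widest median with the lowest share and the highest number of regions of any kind per Mb (44.1).

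The same question can be asked from the side of the genes: how often does a CpG-rich promoter hold an open region. For this, each autosomal protein-coding gene was given 1 TSS, genes with an opposite-strand gene TSS within 1000 bp were set aside, and sequence was classed over the bases within 500 bp of the TSS, whether open or not. Of 5822 genes with a CpG-rich promoter, 3793 (65.1%) had an open region centred in the promoter, against 2411 of 10823 genes with a CpG-poor promoter (22.3%). The difference was 42.9 points (41.4 to 44.3, two-sided Fisher's exact test, p = 2.0e-648). Where it was enough that a region overlapped the promoter, the shares were 5549 of 5822 (95.3%) and 3720 of 10823 (34.4%), and the difference was 60.9 points. Nearly every CpG-rich promoter was therefore touched by open chromatin in these ES cells, while 2029 had no region centred in the promoter window.

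**Figure D3:**
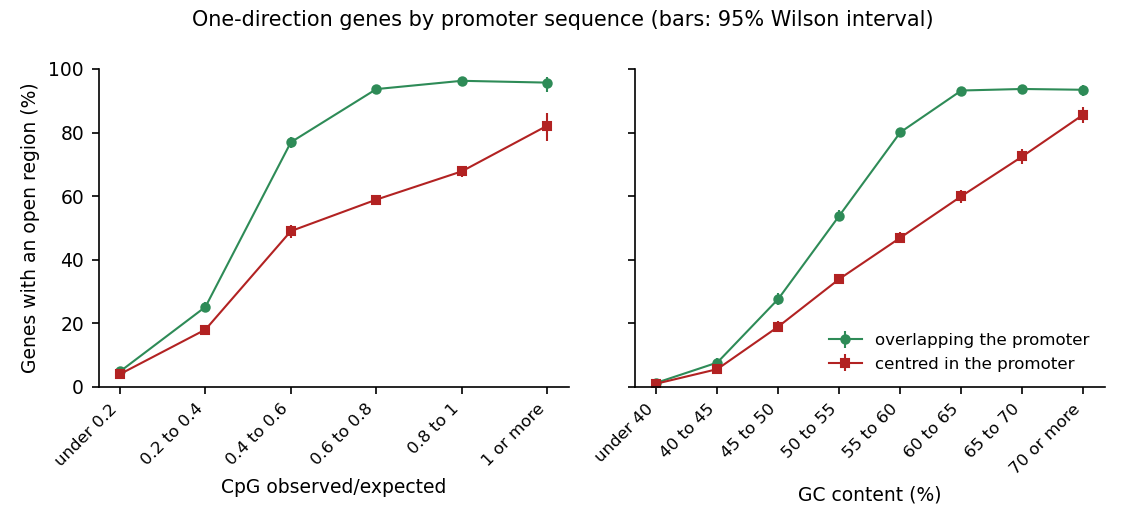
Percentage of one-direction protein-coding genes with an open region (y axis) by CpG observed/expected (left) and GC content in percent (right) of the 1000 bp around the TSS, for regions overlapping the promoter and regions centred in it, with 95% Wilson intervals. The overlapping share rises from 4.78% below a CpG ratio of 0.2 to 93.7% at 0.6 to 0.8 and then levels off, whereas the centred share goes on to 82.1%.

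The share rose steeply over the range of CpG content just below the threshold (plot of genes by promoter sequence). Overlapping regions were found at 4.78% of genes with a CpG ratio below 0.2, 25.1% at 0.2 to 0.4, 76.9% at 0.4 to 0.6, 93.7% at 0.6 to 0.8, 96.3% at 0.8 to 1 and 95.7% at 1 or more. The threshold of 0.6 thus falls near the upper end of the rise. Regions centred in the promoter went on rising over the same bins, from 3.94% and 18% to 49.0%, 58.9%, 67.8% and 82.1%. By GC content the centred share rose from 0.921% below 40% to 85.7% at 70% or more, and the overlapping share from 1.19% to 93.5%.

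The 2029 CpG-rich genes without a centred region mostly had a region in another position. At 1741 of them (85.8%) the promoter was overlapped by a region centred farther downstream, at a median of 195 bp from the TSS (quartiles 146 and 271 bp), and at 15 by a region centred farther upstream only. Since the window reaches 1000 bp upstream but 100 bp downstream, a region that overlaps it without being centred in it lies downstream in most cases by the rule. The CpG dinucleotides of these genes were fewer upstream of the TSS. Genes without a centred region had 5.57 CpG per 100 bp at -200 to -101 and 10.8 at +200 to +299, while genes with a centred region had 8.22 and 10.6 in the same bins. Widening the window to 500 bp downstream of the TSS, an alternative chosen after seeing the data, gave 8247 members in place of 6523.

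No region overlapped the promoter of the remaining 273 CpG-rich genes (4.69% of 5822). Of these, 207 had an open region centred within 5 kb and 66 had none. Their median GC content was 64.5%, against 64.1% for genes with a centred region, whereas their median CpG ratio was lower, 0.757 against 0.805 (95% confidence interval of the latter 0.800 to 0.811). Of the 273, 50.2% had at least 10% repeat bases around the TSS, against 28.8% of the genes with a centred region. What part repeats or the CpG ratio have in the absence of a region was not tested.

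Class by region and class by gene agreed for most genes. Of the 3793 CpG-rich genes with a centred region, the closest region was a member for 3487 (91.9%). Conversely, 4495 of the genes with a member were CpG-rich and 1448 CpG-poor by the 1000 bp around their representative TSS, 120 were bidirectional there and 5 had no such TSS. The set by region thus includes genes whose main promoter is CpG-poor, since a member may lie at another TSS or cover fewer bases than this window.

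Genes with roles in every cell were compared with all CpG-rich genes by group (plot of gene groups). The groups were set by gene symbol, and each count below is for one-direction genes with a CpG-rich promoter, to be read against 65.1% for centred and 95.3% for overlapping regions over all such genes. Regions overlapped the promoters of 41 of 41 genes for cytosolic ribosomal proteins, 17 of 17 for mitochondrial ribosomal proteins, 15 of 15 for proteasome subunits, 10 of 10 for subunits of respiratory complex I, 9 of 9 for aminoacyl-tRNA synthetases, 10 of 10 for DNA replication factors and 16 of 16 for splicing factors. These shares are close to the 95.3% over all CpG-rich genes and are no result about these groups alone. The share over all CpG-poor genes was 34.4%, a class that includes genes with a CpG ratio below 0.2. At a CpG ratio of 0.6 to 0.8 the overlapping share over all one-direction genes was 93.7%. Genes such as Mrpl15 (0.850) and Mrps10 (0.866) were CpG-poor on GC content alone. The groups were not matched by CpG ratio, so their CpG-poor counts are no result about them. Regions overlapped all CpG-poor promoters in 3 groups: 24 of 24 for mitochondrial ribosomal proteins, 14 of 14 for aminoacyl-tRNA synthetases and 10 of 10 for DNA replication factors. In the other groups they overlapped 9 of 12 for cytosolic ribosomal proteins, 11 of 13 for the proteasome, 8 of 9 for complex I and 8 of 12 for splicing factors. The centred shares were 9 of 10 replication factors (90%), 13 of 15 proteasome subunits (86.7%), 8 of 10 complex I subunits (80.0%), 10 of 16 splicing factors (62.5%), 5 of 9 aminoacyl-tRNA synthetases (55.6%) and 9 of 17 mitochondrial ribosomal proteins (52.9%).

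**Figure D4:**
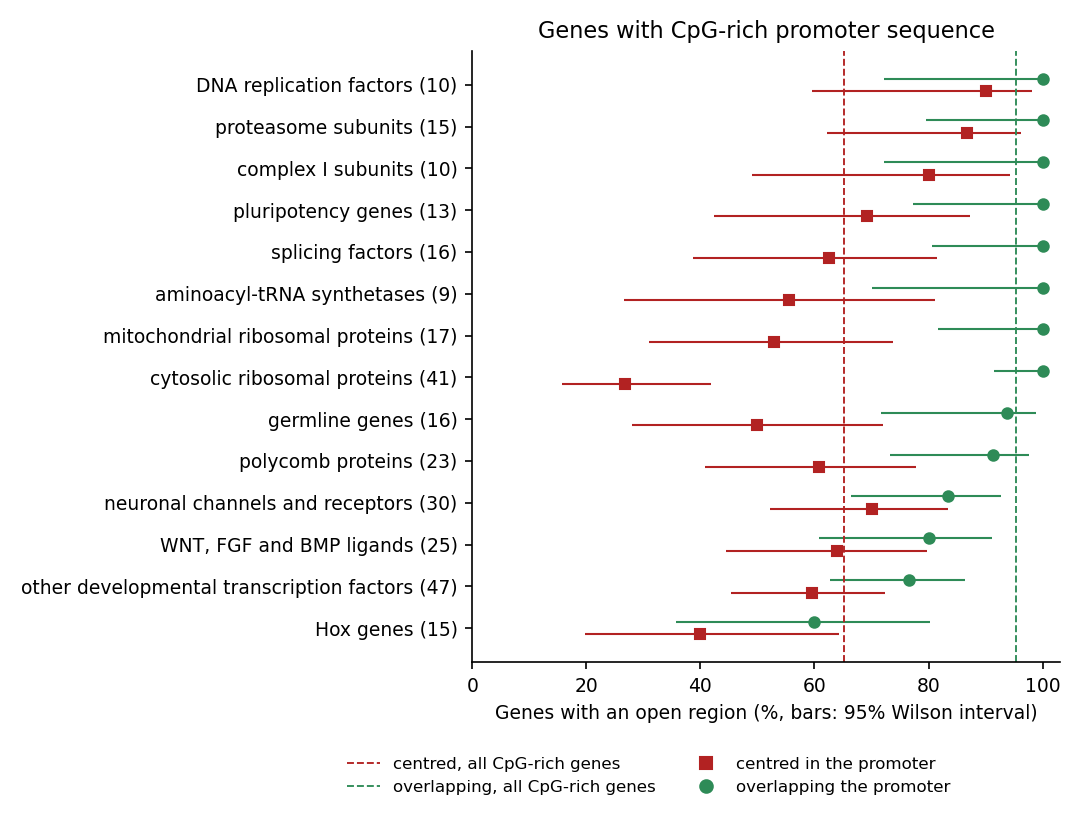
Percentage of genes with an open region (x axis) in each group of one-direction genes with a CpG-rich promoter (y axis, number of genes in brackets), for regions centred in the promoter (squares) and regions overlapping it (circles), with 95% Wilson intervals. Dashed lines mark 65.1% and 95.3% over all CpG-rich genes, and cytosolic ribosomal proteins combine 26.8% centred with 100% overlapping, while Hox genes are lowest on the overlapping scale at 60%.

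Few cytosolic ribosomal protein genes had their region centred in the promoter, although it overlapped all of them. Of these genes, 11 of 41 (26.8%, 15.7% to 41.9%) had a centred region. Among these were Rpl13a (689 bp), Rpl19 (731 bp), Rpl22 (931 bp), Rpl26 (692 bp) and Rpl7 (1894 bp), and all 5 regions were members. At the other 30 the region lay farther downstream, for example with its centre 325 bp from the TSS at Rpl11, 550 bp at Rpl13, 243 bp at Rpl14, 284 bp at Rpl21, 279 bp at Rpl23 and 350 bp at Rpl27. The open chromatin of these genes was thus centred past the limit of 100 bp downstream of the annotated TSS used. That TSS is the most 5′ one of the principal transcripts, and whether transcription starts there in these cells was not tested.

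A centred region was found at 13 of 15 proteasome and 9 of 10 replication genes, beside 65.1% over all CpG-rich genes. The intervals of both shares (62.1% to 96.3% and 59.6% to 98.2%) include that value, so this is no result about these groups. The members at Psma1 (752 bp), Psma6 (747 bp), Psmb2 (784 bp), Psmc6 (790 bp) and Psmd1 (709 bp) were close to each other in width, with Psmb3 (421 bp) the exception among the first in the alphabet. Among replication factors, the licensing factor Cdt1 had a member of 901 bp, Gins4 of 707 bp, Mcm5 of 769 bp, Mcm6 of 871 bp, and the polymerase subunits Pola2 of 553 bp and Pold1 of 512 bp. All of these regions covered their TSS. The median width of the centred regions was 752 bp in the proteasome group, 769 bp in the replication group, 806.5 bp in complex I and 779 bp among splicing factors. It was 828 bp among cytosolic ribosomal proteins, 850 bp among aminoacyl-tRNA synthetases and 691 bp among mitochondrial ribosomal proteins. The median over all members was 713 bp, but it is of an unlike set. The centred regions lie at 1 TSS per gene, and some, as at Psmb5, are not members.

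Polycomb genes encode proteins that bind CpG islands. Of 23 such genes, 14 (60.9%) had a centred region and 21 (91.3%) an overlapping one, and the median width of the 14 was 517.5 bp. The member at Aebp2 had 243 bp, and that at Bmi1 133 bp, while Cbx8 had 869 bp, Epop 235 bp and Ezh1 422 bp. The regions of Bmi1 and Epop lay upstream of the TSS, ending 132 and 11 bp from it. The promoters of Cbx7 and Pcgf2, with CpG ratios of 0.738 and 0.962, were overlapped by no region. The shares of this group are close to those over all CpG-rich genes, 65.1% and 95.3%, and are no result about it.

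At pluripotency genes with a CpG-rich promoter, regions overlapped 13 of 13 promoters and were centred in 9 of them (69.2%). Both shares are close to those over all CpG-rich genes, 95.3% and 65.1%, and are no result about this group. Sox2, which encodes the factor used for sorting, had a member of 767 bp (chr3:34649396-34650162) that ended 243 bp upstream of its TSS. Klf4, a KLF factor of the naive state, had a member of 834 bp from 617 bp upstream to 216 bp downstream of the TSS. The member at Myc was 842 bp wide and ended 144 bp upstream of the TSS, whereas that at Mycn was 270 bp wide and covered it. Both Fgf4 (522 bp) and Fgf5 (1112 bp), a signal of ES cells and a marker of the primed state, had members that covered their TSS. The member at the DNA methyltransferase gene Dnmt3a was 407 bp wide and ended 421 bp upstream.

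At the other pluripotency genes the class or place of the region differed. The nuclear receptor gene Esrrb had a region of 140 bp just upstream of its representative TSS that was not a member, and a member of 622 bp at another TSS (chr12:86469901-86470522). Sall4, a zinc finger factor, had a region of 528 bp over its TSS that was not a member. The regions at Klf2, Klf5, Sall1 and Utf1 were centred downstream, at 159, 140, 605 and 250 bp from the TSS. Among 15 pluripotency genes with a CpG-poor promoter, 7 (46.7%) had a centred region and 9 (60%) an overlapping one, beside 22.3% and 34.4% over all CpG-poor genes. Those with a centred region were Dppa2 (913 bp), Dppa5a (431 bp), Nodal (147 bp), Pou5f1 (501 bp), Prdm14 (210 bp), Tdgf1 (480 bp) and Zfp42 (453 bp), while Dppa4 and Tfcp2l1 were overlapped only. Dppa3, Lefty1, Lefty2, Nanog, Nr5a2 and Tet1 had no region over the promoter of the TSS used. Dnmt3b, Dnmt3l, Gbx2, Lin28a, Otx2, Tbx3 and Tet2 have bidirectional promoters and were set aside.

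These genes also served to check the labelled cell type. Of 8 markers of ES cells, the 3 with a CpG-rich promoter (Esrrb, Klf4 and Sox2) had a centred region, and of the 5 with a CpG-poor promoter 3 had 1 (Dppa5a, Pou5f1 and Zfp42), Tfcp2l1 was overlapped only and Nanog had none. The methods describe culture on gelatin, name no feeder cells, and the cells were sorted on both tagged factors. Of 7 markers of fibroblasts, Twist2 with a CpG-rich promoter had a region of 213 bp that ended 244 bp upstream of its TSS. Among the 6 with a CpG-poor promoter Thy1 had a centred region of 293 bp, Col1a2 was overlapped only, and Col1a1, Col3a1, Pdgfra and Prrx1 had none. The list gives presence and no level, so the amount of either cell type cannot be read from it.

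Developmental regulators had CpG-rich promoters both with and without open chromatin. Hox genes, which pattern the body axis, had a region centred in 6 of 15 CpG-rich promoters (40.0%) and overlapping 9 (60%, 35.7% to 80.2%). No region overlapped the promoters of Hoxa10, Hoxa6, Hoxb5, Hoxb7, Hoxb9 and Hoxd8. The centred regions were those of Hoxa4 (498 bp), Hoxa7 (933 bp), Hoxc13 (860 bp), Hoxd10 (761 bp), Hoxd11 (357 bp) and Hoxd13 (835 bp), all members except that of Hoxc13. Open and unreached promoters thus occurred within the same cluster of genes, as at Hoxa7 and Hoxa6 or Hoxd10 and Hoxd8.

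Other developmental transcription factors formed a larger group. Regions overlapped 36 of 47 CpG-rich promoters (76.6%, 62.8% to 86.4%) and were centred in 28 (59.6%). The first genes in alphabetical order without any overlap were Dlx4, Foxa1, Foxl1, Gata2, Nkx2-4 and Nkx6-2, 6 of 11. Gata2, a regulator of blood formation, was without a region at a GC content of 68.0% and a CpG ratio of 0.766 around its TSS. The centred regions of this group had a median width of 515 bp, and the first were those of Dlx2 (691 bp), Dlx3 (213 bp), Dlx6 (330 bp), Foxb2 (512 bp), Foxc1 (311 bp) and Foxd1 (742 bp).

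WNT, FGF and BMP ligands had an overlapping region at 20 of 25 CpG-rich promoters (80.0%) and a centred one at 16 (64.0%). Members of the first genes in alphabetical order were wide: Bmp1 (850 bp), Bmp7 (823 bp), Bmp8a (1005 bp), Bmp8b (1149 bp) and Fgf12 (1456 bp), with Fgf18 (168 bp) the exception. The promoters of Fgf8, Wnt10b, Wnt4, Wnt5a and Wnt6 were overlapped by no region. Wnt4 had the highest GC content of these, 79.9% with a CpG ratio of 0.859, so high values of both did not secure an open region.

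Neuronal channels and receptors had a centred region at 21 of 30 CpG-rich promoters (70%) and an overlapping one at 25 (83.3%, 66.4% to 92.7%). The members at the calcium channel genes Cacna1a (681 bp), Cacna1e (537 bp) and Cacna1g (600 bp) ended 585, 320 and 75 bp upstream of the TSS. Those of Cacna1b (406 bp) and Cacna1h (1126 bp) and that of the GABA receptor gene Gabra2 (804 bp) covered it. Those of Cacna1i, Grik3, Grin2c and Grin3b were among the promoters with no overlapping region. Over all CpG-rich genes the overlapping share was 95.3% and the centred share 65.1%.

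Germline genes had an overlapping region at 15 of 16 CpG-rich promoters (93.8%) and a centred one at 8 (50.0%). The 8 centred regions were 635 to 849 bp wide, with a median of 688.5 bp. Among these, the members at the helicase gene Ddx4 (666 bp), the recombinase gene Dmc1 (769 bp), Mael (849 bp), Meioc (711 bp), Mov10l1 (635 bp) and Slc25a31 (757 bp) all covered their TSS. Fkbp6 was the gene without an overlapping region. Clustered protocadherins, mostly CpG-poor by this measure, had 2 CpG-rich promoters, of which Pcdhgc3 had a member of 739 bp and Pcdhac2 was overlapped by a region centred 547 bp downstream. Keratins served as a contrast with no CpG-rich promoter: 3 of 46 CpG-poor keratin promoters (6.52%) had a centred region and 7 (15.2%) an overlapping one, beside 22.3% and 34.4% over all CpG-poor genes. The counts by group are descriptions beside the values over all genes, and differences between groups were not tested. The groups were not matched to all genes of their class by CpG ratio.

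The motifs shown in capitals in the printed sequences were counted at all 6464 TSSs of the members. The 150 bp next to each TSS (-150 to -1) were compared with the 150 bp that lie 300 bp farther upstream, for 14 motifs, with a two-sided exact McNemar test and Benjamini-Hochberg adjustment over the 14. Of these, 10 were more frequent near the TSS, 2 were more frequent farther upstream and 2 did not pass an adjusted p of 0.05. The members were chosen on the GC and CpG content of their own bases, which mostly include the near window, while the median upstream edge of -413 bp falls in the far window. CpG content was 4.91 per 100 bp in the 100 bp that begin at -400 and 10.4 at -100 to -1. The contrast thus draws on base composition that the rule used, for the 8 motifs that contain a CpG and, through GC content, for the other words. The shares of each motif are therefore given as a description with no p, and nothing is read from the count of motifs that passed.

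**Figure D5:**
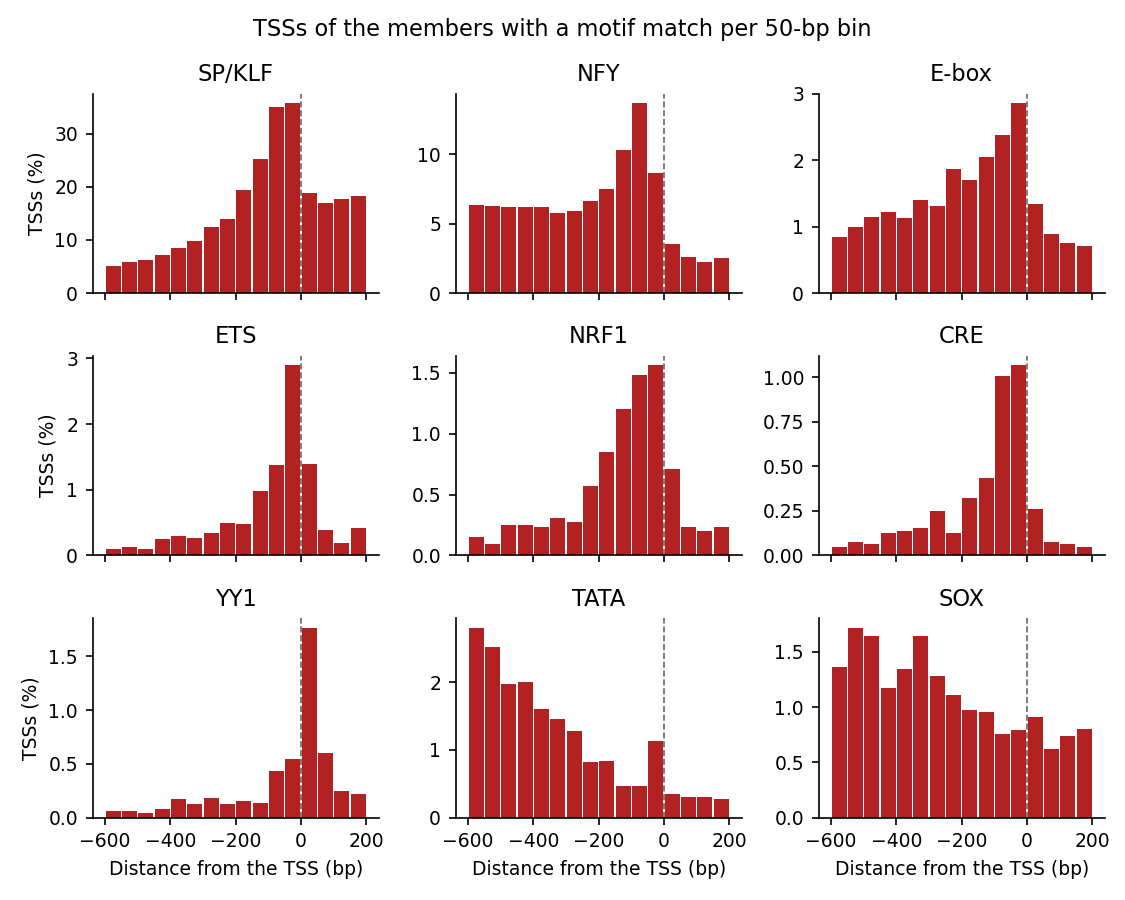
Percentage of the 6464 TSSs of the members with a motif match (y axis) in bins of 50 bp from the TSS (x axis, bp, negative is upstream), for 9 of the motifs. SP/KLF reaches 35.7% and ETS 2.89% just upstream of the TSS, NFY is highest at -100 to -51 (13.7%), YY1 just downstream of the TSS (1.76%), and TATA and SOX are more frequent far upstream.

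The GC box of SP and KLF factors was the most common motif, as printed for Aebp2. It was found near 63.9% of the TSSs (4131 of 6464) and in 20.0% of the upstream windows. Near the TSSs of CpG-poor one-direction regions it was found in 32.5%, and over all 20722 genes in 37.8%, classes that differ in GC and CpG content by choice. The CCAAT box of NFY, printed for Bmp8b, was found near 25% of the TSSs and in 16.2% of the upstream windows. Near the TSSs of CpG-poor regions it was found in 24.0%, and over all genes in 26.5%.

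ETS, CRE and NRF1 matches were rarer, and their shares near the TSS stood highest above those upstream among the 14 motifs, with ratios of 6.49, 5.92 and 5.27. ETS matches, as printed for Mars, were found near 4.72% of the TSSs and in 0.727% of the upstream windows. CRE matches were found near 2.29% and upstream in 0.387%, and NRF1 matches, as at Bmp8a, near 3.91% and upstream in 0.743%. Over all genes the shares near the TSS were 3.10% for ETS, 1.78% for CRE and 2.38% for NRF1. For each of these activators the share in the members was above that over all genes, which include CpG-poor promoters. ZBTB33 matches, as at Psmd5, which has 2, were found near 1.16% of the TSSs and in 0.356% of the upstream windows (all genes, 0.714%). E-boxes, as at Cbx8, were found near 6.73% and upstream in 3.56% (all genes, 4.74%), and E2F matches, as at Mcm5, near 1.08% and upstream in 0.619% (all genes, 0.777%).

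The YY1 word AAGATGGCG was found near 1.02% of the TSSs and in 0.340% of the upstream windows, but its highest share, 1.76%, was in the 50 bp from the TSS downstream. Over all genes it was found near 0.463% of the TSSs, and near the TSSs of CpG-poor regions in 0.248%. Members at a TSS with this motif upstream had a median width of 821.5 bp (772 to 888 bp), against 714 bp for those without. The word holds the ATG triplet, and whether matches downstream of a TSS fall on start codons was not tested.

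The octamer, the motif bound by OCT4, was rare in these promoters. It was found near 43 of 6464 TSSs (0.665%) and in 0.340% of the upstream windows. Over all genes the share was higher, 0.927%. Members with an octamer had a median width of 559 bp (464 to 715 bp), and those without, 717 bp. The SOX motif, CCATTGT or CCTTTGT, was found near 2.34% of the TSSs and in 3.84% of the upstream windows, and over all genes near 3.65%. In this set the motifs of the factors used for sorting were thus rare next to the TSS, and nothing follows from the words alone about binding.

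TATA boxes were rare too. TATAAA was found in 2.03% of the windows near the TSS and in 4.66% of those upstream, and over all genes near 7.29%. Near the TSSs of CpG-poor regions it was found in 217 of 4440 (4.89%). At -35 to -19, where a TATA box that works lies, 42 TSSs (0.650%, 0.481% to 0.877%) had the word, against 0.833% (0.605% to 1.15%) of the TSSs of CpG-poor regions. The differences between the classes in these shares were not tested, and the classes differ in GC content by choice. The motifs that passed in neither direction were the ZFX word AGGCCT, found near 4.78% and in 5.4% upstream (all genes, 5.16%), and the THAP11 word ACTACAATT, near 0.186% and in 0.124% upstream (all genes, 0.405%).

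The 10 motifs more frequent near the TSS were also counted together. They were chosen at these same TSSs, and the GC box alone was found near 63.9% of them, so the counts are a description. None of the 10 was found at 1370 TSSs (21.2%), 1 at 3296 (51.0%) and 2 or more at 1798 (27.8%). The GC box and the CCAAT box occurred together at 1033 (16.0%). Matches of different motifs shared bases at 68 TSSs (1.05%), most often NFY with the GC box (15) and E2F with the GC box (13). Among CpG-rich genes, those with a centred region had the GC box near the TSS in 70.9% and those without in 57.9%. For NFY these shares were 27.7% and 20.6%, and for YY1 0.712% and 0.148%, while for NRF1 (4.09% and 3.84%) and ETS (4.09% and 3.6%) they were close. CRE (2.56% and 2.22%), ZBTB33 (1.16% and 0.986%) and SOX (2.03% and 1.97%) also had the higher share at genes with a centred region. The remaining motifs had the higher share at genes without one. Their shares were 6.75% and 6.95% for the E-box, 1.11% and 1.48% for E2F and 0.633% and 0.887% for the octamer. For THAP11 they were 0.237% and 0.641%, for ZFX 4.48% and 5.03% and for TATA 2.21% and 2.96%. None of these differences was tested.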

How the data were processed

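ATAC-seq regions of the 12 SBROS libraries were analysed from the deposited list, which gives the chromosome, start (counted from 0) and end of each region in bp. According to the methods and the processing notes, the authors aligned reads to mm10 with STAR (2.5.3a), removed duplicates with Picard, called peaks in each library with MACS2 (2.1.1.20160309), merged the libraries and dropped peaks shared with a ChIP-seq input. The notes also name deepTools (2.4.2). The methods give a range of reads over the libraries, while the list holds no level or library, so the depth behind a region is unknown. The ChIP-seq samples were left out.

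Regions were joined to GENCODE M21 and GRCm38 with Python (3.11.15), numpy (2.4.6) and scipy (1.17.1), and plots drawn with matplotlib (3.10.9). A region took the closest protein-coding TSS whose window held its centre, any transcript of the gene counting. Shares have Wilson intervals, differences Newcombe intervals (95%) and two-sided Fisher's exact tests; medians were compared with Mood's median test in the same form. Motifs were compared with two-sided exact McNemar tests. The tests were tested on simulated data first. Alternatives changed TSSs, thresholds, windows and widths, 1 at a time; the 500 bp downstream limit was chosen after seeing the data.

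Genes named were up to 6 per gene group and count in alphabetical order (all pluripotency genes and cell type markers), the 5 widest and 5 narrowest members, those with the most members, and regions just inside or outside a threshold. Members and lists were chosen with earlier results of these data known.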

Additional observations from a re-analysis of the deposited data

How the results depend on the processing

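Over 20 other settings of 10 results, 113 recomputed values kept their direction and their side of the threshold of 0.05 or, for counts, stayed within 1.5 times the reported count, while 4 turned direction, 4 lost their call and 2 counts moved more. The number of members was 3852 with 1 TSS per gene and 4023 with a CpG threshold of 0.75, against 6523, since both settings admit fewer regions. The difference in TSS coverage from bidirectional promoters (-2.23 points) was -4.12 with no opposite-strand gene within 500 bp, 0.0317 with 1 TSS per gene and -1.37 with none within 2000 bp, a setting under which the difference in neighbours from bidirectional promoters (5.07) was 1.28. The latter was 1.68 for neighbours within 2 kb. The difference in neighbours from CpG-poor regions (-4.38) was 0.891 with a GC threshold of 60%, 0.204 with a CpG threshold of 0.75, 2.95 with sequence measured around the TSS and -1.37 within 2 kb. The cause of these changes was not tested. Differences in width, in repeats and in the share of genes with a region kept direction and call in all settings tried. So did TSS coverage against CpG-poor regions. Width, repeats and TSS coverage were measured on regions that the rule classed by the sequence of their own bases. In addition, 8 to 11 of 14 motifs were more frequent near the TSS, a count that draws on the sequence thresholds of the set.

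No paired analysis was possible because the list pools the libraries, and for the same reason no replicate was left out. The list holds presence and position, so strength of accessibility, differences between SHOH, SHOL, SLOH and SLOL, and regions too weak to be called are out of reach. Neighbouring regions and genes with several TSSs are not independent, and the tests do not take this into account. Motif words miss variants of a site. The part of repeats in missing regions was not tested.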
